A study of Mus musculus with 10 samples.

Results

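The 10 genes described here belong to the integrated stress response and its central transcription factor ATF4. They were taken by symbol from a list of known pathway genes (Atf4, Ddit3, Ddit4, Chac1, Trib3, Asns, Sesn2, Psat1, Phgdh and Ppp1r15a), out of 57010 genes in the table. The choice was made with earlier results of these data known. All 10 had a row and passed the filter on low counts. A second row that the GENCODE M21 annotation also names Ddit3 (ENSMUSG00000116429) held 0 counts in every library and was not used. The RNA came from whole retinas of mice aged 6 to 8 weeks, collected 14 days after treatment. In each group 5 mice had been injected intravitreally with an adeno-associated virus carrying green fluorescent protein, with the capsid AAV2 (AAV2-GFP) or the capsid AAV206 (AAV206-GFP). Both groups therefore carried a vector, the reporter and the injection, and each difference is between 2 injected groups. Strain, sex and the promoter driving the reporter were not given in the sources used here, and uninjected retinas were not analysed here.

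In the integrated stress response, kinases that sense endoplasmic reticulum stress, amino acid shortage, double-stranded RNA or haem shortage phosphorylate the translation factor eIF2. General protein synthesis then falls, while the Atf4 messenger RNA is translated more, so the Atf4 RNA level by itself does not give the amount of ATF4 protein. ATF4 pairs with other basic leucine zipper proteins and binds composite C/EBP-ATF sites near genes for amino acid synthesis, amino acid transport, tRNA charging, redox balance and feedback control. In retinal neurons the pathway is known from axon injury and from photoreceptor protein misfolding, where its factor CHOP (Ddit3) has been tied to cell death.

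The composite site was searched in promoter sequences as TGATGNAA on both strands, over 250 bases before to 50 bases after each RefSeq start (build GRCm38.p6). It was found for 3 of the 10 genes, namely Chac1, Trib3 and Asns, and in 3.97% of all 32851 promoters of that length. Here and below, a listed gene counts once if any of its promoters matched, while the share over all is of promoters. Upstream matches of Chac1 and Asns are printed with those of Atf3 and Aars, since the 4 genes carry the same element. Between the vectors Aars was higher and Atf3 lower at an edgeR adjusted p-value under 0.05. The Atf3 call was lost in several alternative analyses. Chac1 and Asns did not reach this threshold, and differences among the 4 were not tested. The capitals mark the match, and positions count from the start site.
Chac1 (chr2:119351023-119351082, plus strand, match at -193): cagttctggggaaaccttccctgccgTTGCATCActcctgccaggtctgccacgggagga
Asns (chr6:7693210-7693258, minus strand, match at -23): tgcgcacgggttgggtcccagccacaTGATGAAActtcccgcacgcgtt
Atf3 (chr1:191183410-191183469, minus strand, match at -110): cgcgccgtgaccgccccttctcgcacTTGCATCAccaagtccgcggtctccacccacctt
Aars (chr8:111033704-111033763, plus strand, match at -112): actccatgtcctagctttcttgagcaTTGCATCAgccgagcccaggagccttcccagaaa
The Trib3 match, TTACATCA, lies at 15, after the start. For Atf4, Ddit3, Ddit4, Sesn2, Psat1, Phgdh and Ppp1r15a these letters are not in the window searched. A match is a description of the sequence and not a measured binding site.

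Total counts lay between 10989843 and 12752604 per library, so that a count of 3 equals 0.235 to 0.273 CPM. Levels are given as CPM, counts scaled to a common library size by the trimmed mean of M values (TMM). Retinal identity was as labelled, with 8 rod markers summing to between 53222 and 62777 CPM. One library stood apart: AAV2-GFP replicate 1 held 432 CPM of 14 microglia and macrophage markers against 47.2 to 93.2 CPM in the other 9, and 25.5 CPM of T and NK cell markers against at most 1.35 CPM. The sum of 13 interferon-stimulated genes was 461 CPM in AAV2-GFP replicate 1 and 622 CPM in AAV2-GFP replicate 4, against 83.5 to 154 CPM in the remaining 8.

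Compared with AAV2-GFP, retinas given AAV206-GFP had lower RNA of the stress transcription factors Atf4 and Ddit3, and the other 8 genes did not pass. The Ddit3 call held in all 10 fits that left out a mouse and in all 11 other alternative analyses. That of Atf4 sat at the threshold and held in 3 of the 10 and 6 of the 11. With edgeR, an adjusted p-value under 0.05 over all 15539 genes tested was reached by 2 of the 10, both lower. Over all genes 11.2% passed in either direction, 5.30% as lower and 5.95% as higher. An unadjusted p-value under 0.05 was reached by 6 of the 10, with 5 lower and 1 higher, where 28.0% of all genes reached it. The log2 fold change was negative for 7 of the 10 (51.8% of all genes), with a median of -0.18, against -0.0095 over all genes. In these bulk samples, fewer cells of a type and less RNA per cell cannot be told apart.

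**Figure D1:**
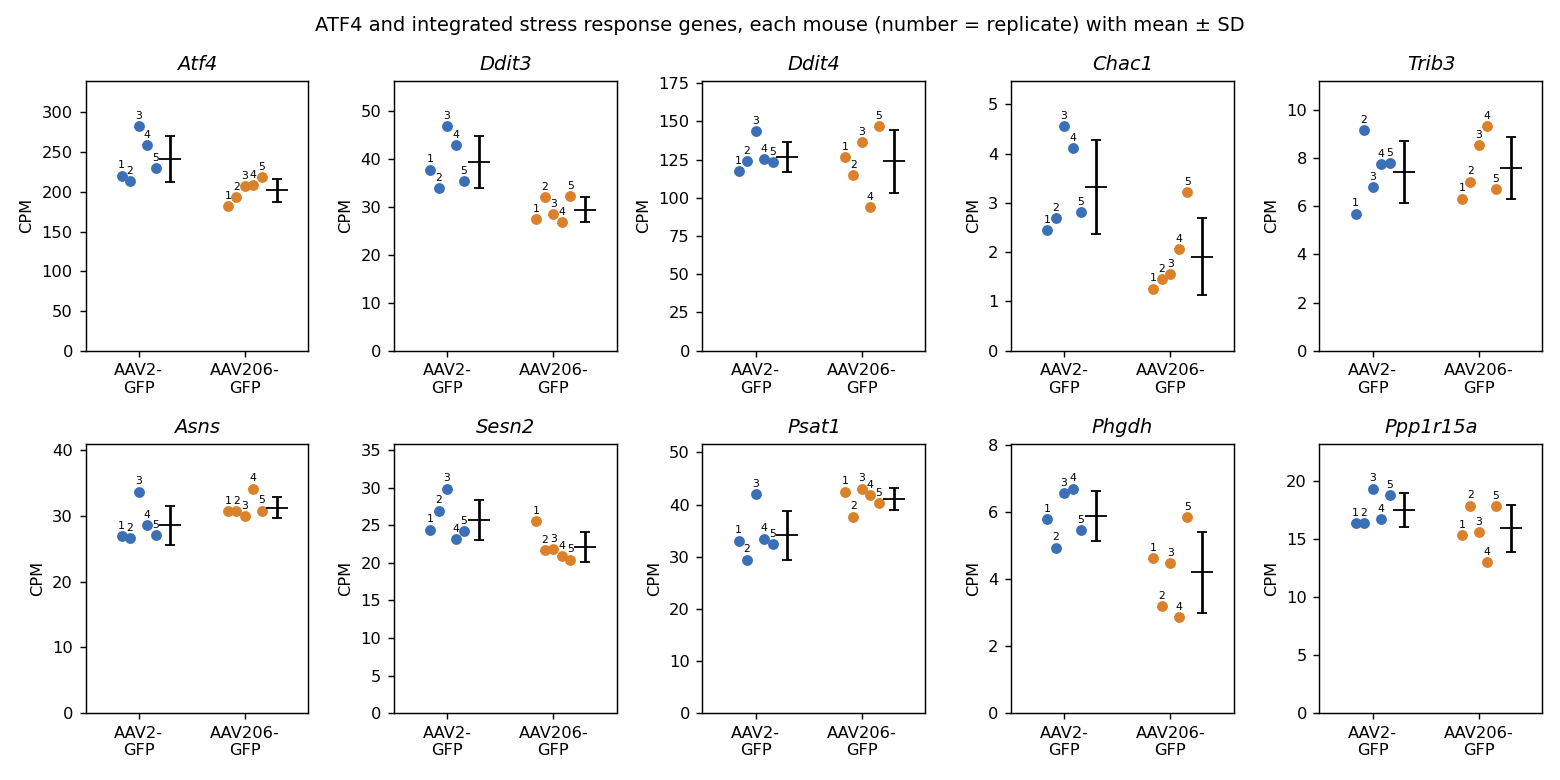
Level of each of the 10 genes in CPM (vertical axes, from 0) in the 5 mice of each vector group; each point is a mouse numbered by replicate, and the bar gives the mean ± SD. Ddit3 is the gene without overlap, with 33.9 to 46.8 CPM for AAV2-GFP and 26.8 to 32.1 CPM for AAV206-GFP.

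Ddit3 (ENSMUSG00000025408; chr10:127290774-127296288 in GRCm38) encodes CHOP, a stress-induced partner of the C/EBP family. Its level was 37.7, 33.9, 46.8, 42.8 and 35.3 CPM in AAV2-GFP replicates 1 to 5, and 27.3, 32.0, 28.5, 26.8 and 32.1 CPM in AAV206-GFP replicates 1 to 5. Every AAV206-GFP mouse was below every AAV2-GFP mouse, and no other of the 10 genes separated the groups fully (9.78% of all genes tested did so, and 4.36% with AAV206-GFP lower). The mean fell to 29.4 ± 2.55 CPM with AAV206-GFP, from 39.3 ± 5.39 CPM with AAV2-GFP (SD, n = 5), which is -0.42 ± 0.10 as a log2 ratio with its SE (edgeR adjusted p = 0.0112). On the linear scale the level fell by 25.3%. The call held in 21 of 21 alternative analyses, with adjusted p-values from 0.00125 to 0.0439.

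Atf4 (ENSMUSG00000042406; chr15:80255184-80257541 in GRCm38) encodes the factor at the centre of the response. The AAV2-GFP mice had 220.3, 213, 283, 259 and 229.9 CPM and the AAV206-GFP mice 182, 193, 207, 208 and 218 CPM. In AAV206-GFP 4 of 5 mice were below the lowest AAV2-GFP mouse, and replicate 5 overlapped. The mean fell to 202 ± 14.2 CPM with AAV206-GFP, from 241 ± 29.1 CPM with AAV2-GFP (SD, n = 5), which is -0.26 ± 0.08 as a log2 ratio with its SE (edgeR adjusted p = 0.0486). This call sits at the threshold: it was lost in 7 of the 10 fits that left out a single mouse (AAV2-GFP 3, 4 or 5, or AAV206-GFP 1, 2, 3 or 4) and held in 6 of 11 other alternatives, with adjusted p-values from 0.0154 to 0.120 over all of them. The direction was the same in each, with log2 fold changes from -0.30 to -0.19.

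Chac1 (ENSMUSG00000027313), a glutathione-degrading enzyme and a sensitive readout of ATF4 activity, had the widest interval of the 10. The values were 2.44, 2.69, 4.56, 4.11 and 2.82 CPM with AAV2-GFP and 1.26, 1.46, 1.55, 2.06 and 3.22 CPM with AAV206-GFP. All AAV206-GFP mice but replicate 5 were below the AAV2-GFP range. As a log2 fold change the difference was -0.80 with a 95% interval from -1.42 to -0.18, and the gene did not pass (edgeR adjusted p = 0.0873, from 0.0284 to 0.208 over its alternatives). Counts per library were only 15 to 59. Without AAV206-GFP replicate 5 the log2 fold change was -1.07 and the gene passed (edgeR adjusted p = 0.0284).

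Trib3 (ENSMUSG00000032715), a pseudokinase that restrains ATF4 and CHOP in a feedback loop, was measured at 5.70, 9.16, 6.81, 7.74 and 7.77 CPM with AAV2-GFP and at 6.31, 7.02, 8.54, 9.33 and 6.70 CPM with AAV206-GFP. The groups overlapped almost completely. The fitted log2 fold change was 0.03 with a 95% interval from -0.32 to 0.38 (edgeR adjusted p = 0.936), and its sign turned in 6 of 21 alternatives.

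Ppp1r15a (ENSMUSG00000040435) encodes GADD34, the stress-induced phosphatase subunit that removes the phosphate from eIF2. It had 16.4, 16.3, 19.3, 16.7 and 18.8 CPM in the AAV2-GFP mice and 15.3, 17.9, 15.6, 13 and 17.8 CPM in the AAV206-GFP mice. In AAV206-GFP 3 mice were below the AAV2-GFP range and 2 within it. This gave a log2 fold change of -0.14 with a 95% interval from -0.37 to 0.09 (edgeR adjusted p = 0.432).

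Ddit4 and Sesn2 encode stress-induced inhibitors of mTORC1, the growth kinase complex. Sesn2 (ENSMUSG00000028893) had 24.4, 26.9, 29.9, 23.2 and 24.2 CPM with AAV2-GFP and 25.6, 21.7, 21.8, 20.9 and 20.4 CPM with AAV206-GFP. Apart from replicate 1 the AAV206-GFP mice were below the AAV2-GFP range. The log2 fold change was -0.22 with a 95% interval from -0.42 to -0.02, which did not pass over all genes (edgeR adjusted p = 0.140). Ddit4 (ENSMUSG00000020108) had 117, 124, 143, 125 and 123 CPM with AAV2-GFP and 127, 115, 136, 93.7 and 147 CPM with AAV206-GFP, where the spread among mice was wider. Its log2 fold change was -0.03 with a 95% interval from -0.24 to 0.18 (edgeR adjusted p = 0.856), and the sign turned when AAV2-GFP replicate 3 or AAV206-GFP replicate 4 was left out.

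The fitted changes of the 3 amino acid synthesis genes did not share a sign, and none of the 3 passed in the main analysis. Psat1 (ENSMUSG00000024640), the aminotransferase of serine synthesis, had 33.1, 29.5, 42.1, 33.5 and 32.4 CPM with AAV2-GFP and 42.5, 37.7, 43.0, 41.8 and 40.3 CPM with AAV206-GFP. Every AAV206-GFP mouse was above 4 of the 5 AAV2-GFP mice, and AAV2-GFP replicate 3 lay among them. The log2 fold change was 0.27 with a 95% interval from 0.08 to 0.45 (edgeR adjusted p = 0.0618). The gene passed with DESeq2 (adjusted p = 0.0401), with limma-voom and sample weights (adjusted p = 0.0229), and with edgeR without AAV2-GFP replicate 3 (log2 fold change 0.35, adjusted p = 0.00824), over a range from 0.00824 to 0.201.

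Phgdh (ENSMUSG00000053398), the dehydrogenase that precedes Psat1 in the same route, lay on the other side of 0. It had 5.79, 4.94, 6.57, 6.70 and 5.47 CPM with AAV2-GFP and 4.63, 3.19, 4.48, 2.87 and 5.85 CPM with AAV206-GFP, so that replicate 5 was the AAV206-GFP mouse inside the AAV2-GFP range. The log2 fold change was -0.48 with a 95% interval from -0.91 to -0.05 (edgeR adjusted p = 0.131), on 32 to 85 counts per library. The difference between the fold changes of Psat1 and Phgdh was not tested.

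Asns (ENSMUSG00000029752), which makes asparagine, had 26.9, 26.6, 33.6, 28.6 and 27.1 CPM with AAV2-GFP and 30.7, 30.6, 29.9, 34.1 and 30.8 CPM with AAV206-GFP. As for Psat1, the AAV206-GFP mice were above all AAV2-GFP mice but replicate 3. This gave a log2 fold change of 0.13 with a 95% interval from -0.05 to 0.30 (edgeR adjusted p = 0.324).

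**Figure D2:**
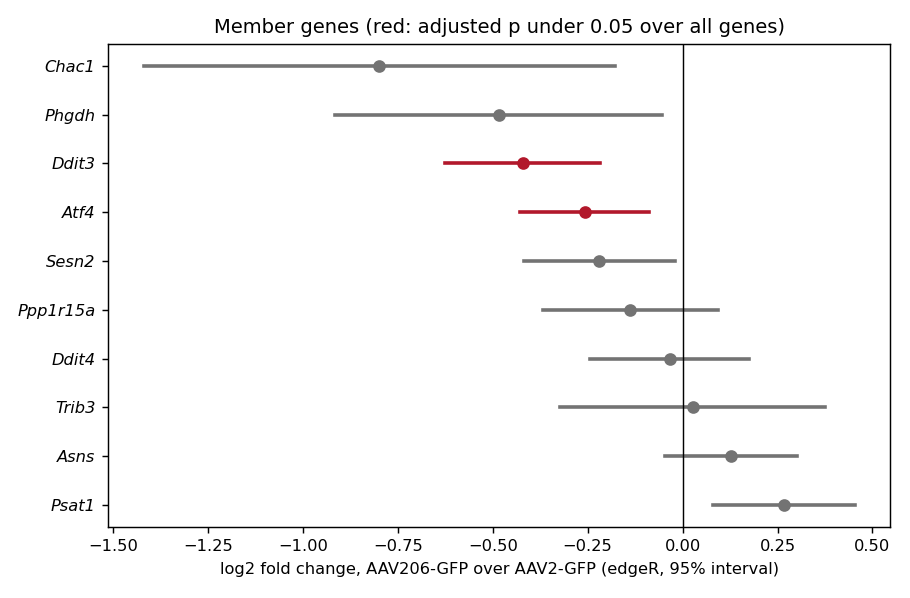
Log2 fold change of AAV206-GFP over AAV2-GFP for the 10 genes (points, horizontal axis) with 95% intervals from the edgeR fit (lines); red marks an adjusted p-value under 0.05 over all genes. Ddit3 at -0.42 and Atf4 at -0.26 are red, and Chac1 at -0.80 is further from 0 with an interval from -1.42 to -0.18.

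Per kilobase of annotated exon, Atf4 was the most abundant of the 10, at 102 ± 12.4 CPM per kilobase in AAV2-GFP retinas (SD, n = 5), followed by Ddit4 at 72.2 ± 5.64. Ddit3 came next at 22.9 ± 3.15 and Asns at 10.4 ± 1.08. Psat1 (8.02 ± 1.11), Sesn2 (7.40 ± 0.778) and Ppp1r15a (5.96 ± 0.490) lay closer together, and Psat1 and Sesn2 did not differ beyond their spread. Trib3 (3.50 ± 0.605), Phgdh (2.37 ± 0.299) and Chac1 (2.03 ± 0.579) were lowest, with Phgdh and Chac1 within their spread of each other. The order was the same with AAV206-GFP, from Atf4 at 85.5 ± 6.04 to Chac1 at 1.17 CPM per kilobase. These levels use exon lengths of GENCODE M21, which may not be the annotation behind the counts.

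AAV2-GFP replicate 3 had the highest level of its group in 8 of the 10 genes, the exceptions being Trib3 and Phgdh, and it was highest in 27.0% of all tested genes. It also had the deepest library, with 12752604 counts, and its part in this was not tested. In AAV206-GFP replicate 5 was highest in 5 of the 10 genes and in 20.9% of all tested genes.

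Of the 45 pairs among the 10 genes, 36 had a positive correlation across the 10 mice once each group's mean was removed. The median Pearson r was 0.36. The same count was not computed for other sets of genes, so whether it is particular to these 10 was not tested. After Benjamini-Hochberg adjustment over the 45 pairs, 1 passed an exact permutation test within groups (14400 orders, two-sided). Atf4 and Chac1 had r = 0.873 (exact permutation p = 0.000347, adjusted 0.0156) and Spearman rho = 0.891 (exact permutation p = 0.00118, adjusted 0.0531). Without the 2 mice farthest from the median of Atf4, r was 0.889. Atf4 and Ddit3 had r = 0.769 (exact permutation p = 0.0312, adjusted 0.291; rho = 0.806, exact permutation p = 0.0187, adjusted 0.229), and r was 0.507 without the 2 farthest mice. Ddit4 and Phgdh had r = 0.857 (exact permutation p = 0.0108, adjusted 0.244; rho = 0.806, exact permutation p = 0.0203, adjusted 0.229), and r was 0.637 without the 2 farthest mice. Without AAV2-GFP replicates 1 and 4 Atf4 and Chac1 had r = 0.846, where an adjusted exact permutation p of 0.0625 is the smallest that 720 orders allow for a lone pair among 45.

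Outside the lists used here, the genes whose levels most resembled Atf4 by this measure were Timmdc1 (r = 0.975), Tubb4b (r = 0.972) and Atp5a1 (r = 0.964), among 11165 protein-coding genes with at least 5 CPM. For Ddit3 they were Vapa (r = 0.976), Capns1 (r = 0.958) and Eral1 (r = 0.955). These values describe 10 libraries that share the same processing, and of the 6 genes Tubb4b differed between the vectors (log2 fold change -0.39, edgeR adjusted p = 0.00152), although 4 of its libraries carried fractional counts.

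The rest of the pathway was followed in 7 lists with 135 genes, of which 130 were tested. With edgeR 18 of these rose and 22 fell in AAV206-GFP retinas (30.8% in all). Over all genes tested 11.2% passed, 5.95% as higher and 5.30% as lower. The lists were chosen with earlier results of these data known, so the shares describe them and are not a test. By list the share that passed was 75% for the XBP1 and ATF6 branch, 55.6% for synthetases and 30.8% for partner factors. It was 26.7% for serine and one-carbon genes, 18.2% for transporters, 15% for eIF2 and its regulators and 6.06% for further targets. Of the 18 that rose, 10 charge tRNA and 2 import amino acids, and of the 22 that fell, 15 belong to the XBP1 and ATF6 branch.

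**Figure D3:**
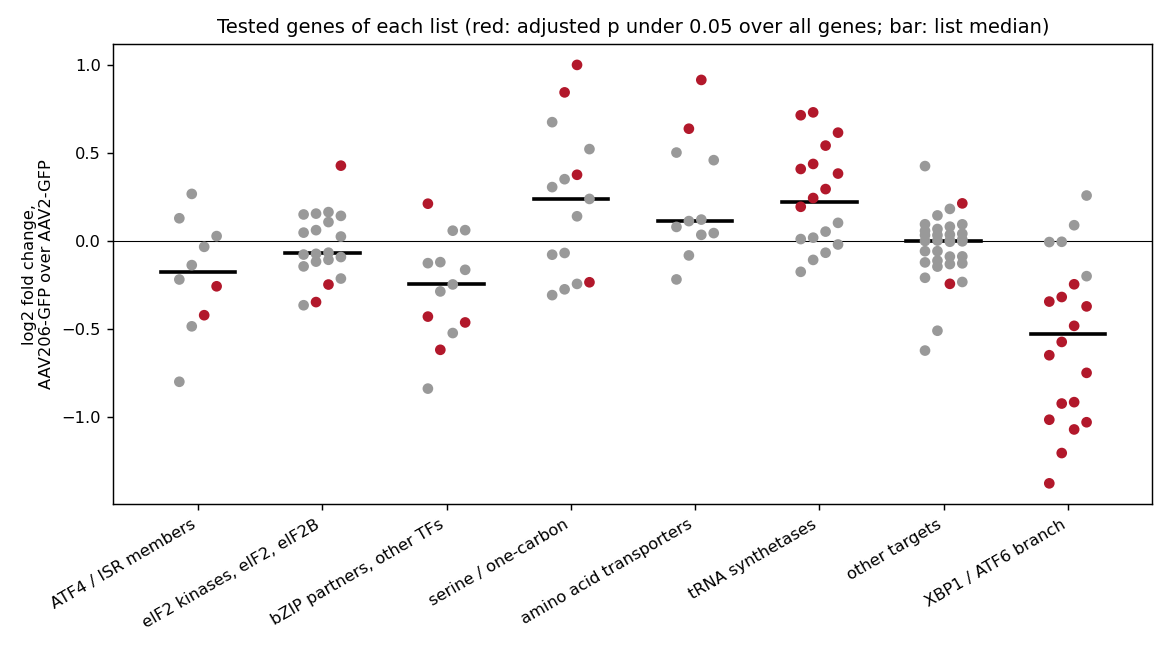
Log2 fold change of AAV206-GFP over AAV2-GFP (vertical axis) for each tested gene of the 10 ATF4 and integrated stress response (ISR) genes and of the 7 pathway lists; red points had an adjusted p-value under 0.05 and black bars are list medians. The tRNA synthetases have a median of 0.22 and the XBP1 and ATF6 branch a median of -0.53.

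Upstream of Atf4, the kinase that senses uncharged tRNA was higher and the others did not pass. Eif2ak4 (GCN2) rose to 39.9 ± 5.73 CPM with AAV206-GFP, from 29.7 ± 2.85 CPM with AAV2-GFP (SD, n = 5), with 28.7, 32.5, 25.8, 29.2 and 32.5 CPM against 46.5, 34, 37.9, 45.5 and 35.7 CPM and no overlap. As a log2 ratio the difference was 0.43 ± 0.10 (SE; edgeR adjusted p = 0.0133), and it did not pass without AAV2-GFP replicates 1 and 4 together (0.39, adjusted p = 0.0641). Eif2ak3 (PERK), which senses endoplasmic reticulum stress, had -0.07, and Eif2ak1 (HRI), which senses haem shortage, had -0.08 (edgeR adjusted p = 0.60 and 0.480). Eif2ak2 (PKR), an interferon-induced sensor of double-stranded RNA, was at 22.8 CPM in AAV2-GFP replicate 4 and between 4.02 and 9.22 CPM in the other 9 mice. Its log2 fold change was -0.37 over all mice (edgeR adjusted p = 0.594), 0.37 without AAV2-GFP replicate 4 (adjusted p = 0.409) and 0.75 without AAV2-GFP replicates 1 and 4 (adjusted p = 0.0389), the 2 mice with the highest interferon-stimulated sums.

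Of the 20 genes for eIF2, its kinases, its exchange factor eIF2B and their regulators, 1 was higher and 2 were lower. The lower genes were Dnajc3 (log2 fold change -0.35, edgeR adjusted p = 0.00332), an inhibitor of these kinases, and Ppp1ca (-0.25, adjusted p = 0.0448), a catalytic phosphatase subunit whose reads were fractional in all 10 libraries. Both were named after their values were seen. Dnajc3 passed in all 21 alternatives, while the Ppp1ca call was lost in 10 of them: with upper-quartile factors, with the replicate number as a block, and without AAV2-GFP 2, 3, 4 or 5 or AAV206-GFP 1, 2, 3 or 4. Ppp1r15b, the constitutive counterpart of Ppp1r15a, had -0.12 (edgeR adjusted p = 0.272), and the 5 eIF2B genes did not pass.

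Among 13 tested partners and other transcription factors of the network, 3 were lower and 1 was higher, with a median of -0.25. Atf3, an ATF4-induced bZIP factor of injured neurons, had 12.4, 11.1, 12, 10.1 and 11.4 CPM with AAV2-GFP and 7.91, 6.66, 8.19, 9.96 and 8.65 CPM with AAV206-GFP. The Atf3 groups did not overlap, and it fell by 0.46 on the log2 scale (SE 0.13, edgeR adjusted p = 0.0329). Atf5, a factor translated in the same manner as Atf4, fell to 14.6 ± 2.05 CPM with AAV206-GFP, from 19.6 ± 2.86 CPM with AAV2-GFP (SD, n = 5), which is -0.43 ± 0.12 as a log2 ratio with its SE (edgeR adjusted p = 0.0362). Each of the 2 calls was lost in 6 of the 10 fits that left out a mouse, and without AAV2-GFP replicates 1 and 4 (adjusted p = 0.0710 for Atf3 and 0.113 for Atf5). Both were also lost with the replicate number as a block (edgeR adjusted p = 0.0727 for Atf3 and 0.0607 for Atf5). The Atf3 call was lost with no filter as well (edgeR adjusted p = 0.0572). The mice whose loss ended the Atf3 call were AAV2-GFP 1, 3 and 5 and AAV206-GFP 1, 2 and 3, and for Atf5 AAV2-GFP 3 and 4 and AAV206-GFP 1, 2, 3 and 4. Tfeb (-0.62, adjusted p = 0.0131), a lysosome regulator, and Foxo3 (0.21, adjusted p = 0.0391) also passed and were named after their values were seen. Tfeb passed in all 21 alternatives. The Foxo3 call was lost in 11 of them: with no filter, with the replicate block, without AAV2-GFP replicates 1 and 4, and without AAV2-GFP 2, 3, 4 or 5 or AAV206-GFP 2, 3, 4 or 5. Cebpb (-0.25) and Cebpg (-0.13), partners of ATF4 on the composite site, did not pass (edgeR adjusted p = 0.452 and 0.321).

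The aminoacyl-tRNA synthetases, which load amino acids onto tRNA, held the most increases. Of 18 cytosolic synthetase genes 10 rose and none fell with edgeR, with increases from 0.19 to 0.73 on the log2 scale and a list median of 0.22. The count of higher genes was between 8 and 10 in all 21 alternatives. Cars, for cysteine, had 35.9, 37.9, 36.4, 39.8 and 35.7 CPM with AAV2-GFP and 65.3, 67.8, 52.0, 69.8 and 53.2 CPM with AAV206-GFP. As a log2 ratio the difference was 0.73 ± 0.09 (SE; edgeR adjusted p = 7.8e-05), and the groups did not overlap.

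Aars, for alanine, was among the most even genes, at 191, 189, 203, 202 and 195 CPM with AAV2-GFP and 261, 268, 263, 271 and 264 CPM with AAV206-GFP. As a log2 ratio the difference was 0.44 ± 0.05 (SE; edgeR adjusted p = 6.72e-05). Lars (leucine), Mars (methionine) and Iars (isoleucine) rose by 0.71, 0.61 and 0.54 on the log2 scale (edgeR adjusted p = 2.2e-05, 4.32e-05 and 0.000282). The other 5 that rose, named after their values were seen, were Yars, Gars, Tars, Nars and Eprs (0.41, 0.38, 0.29, 0.24 and 0.19), and Nars was the one whose groups overlapped. Gars, Yars and Tars passed in all 21 alternatives, whereas Eprs (edgeR adjusted p = 0.0493) kept its call in 1 of the 10 fits without a mouse (AAV206-GFP replicate 1) and Nars in 3 of them (AAV2-GFP 3, AAV206-GFP 1 or 5). The 8 that did not pass were Sars, Wars, Vars, Hars, Kars, Rars, Dars and Qars, with log2 fold changes from -0.18 to 0.10. Among them Qars was lower in every AAV206-GFP mouse (45.8 to 49.7 CPM) than in every AAV2-GFP mouse (50.2 to 57.4 CPM). Its log2 fold change was -0.18 (edgeR adjusted p = 0.0754). The composite site TGATGNAA was found in the promoters of 5 of the 10 synthetase genes in the RefSeq table (Aars, Gars, Iars, Tars and Yars). All 5 rose, while 10 of all 18 synthetase genes rose. The site was in 3.97% of all promoters. Cars, Lars and Mars had no promoter there. The site was also found for Atf3, Got1 and Herpud1, which fell, and for genes that did not pass, such as Asns, Pck2 and Slc1a4. Whether a match goes with the direction of change was not tested.

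**Figure D4:**
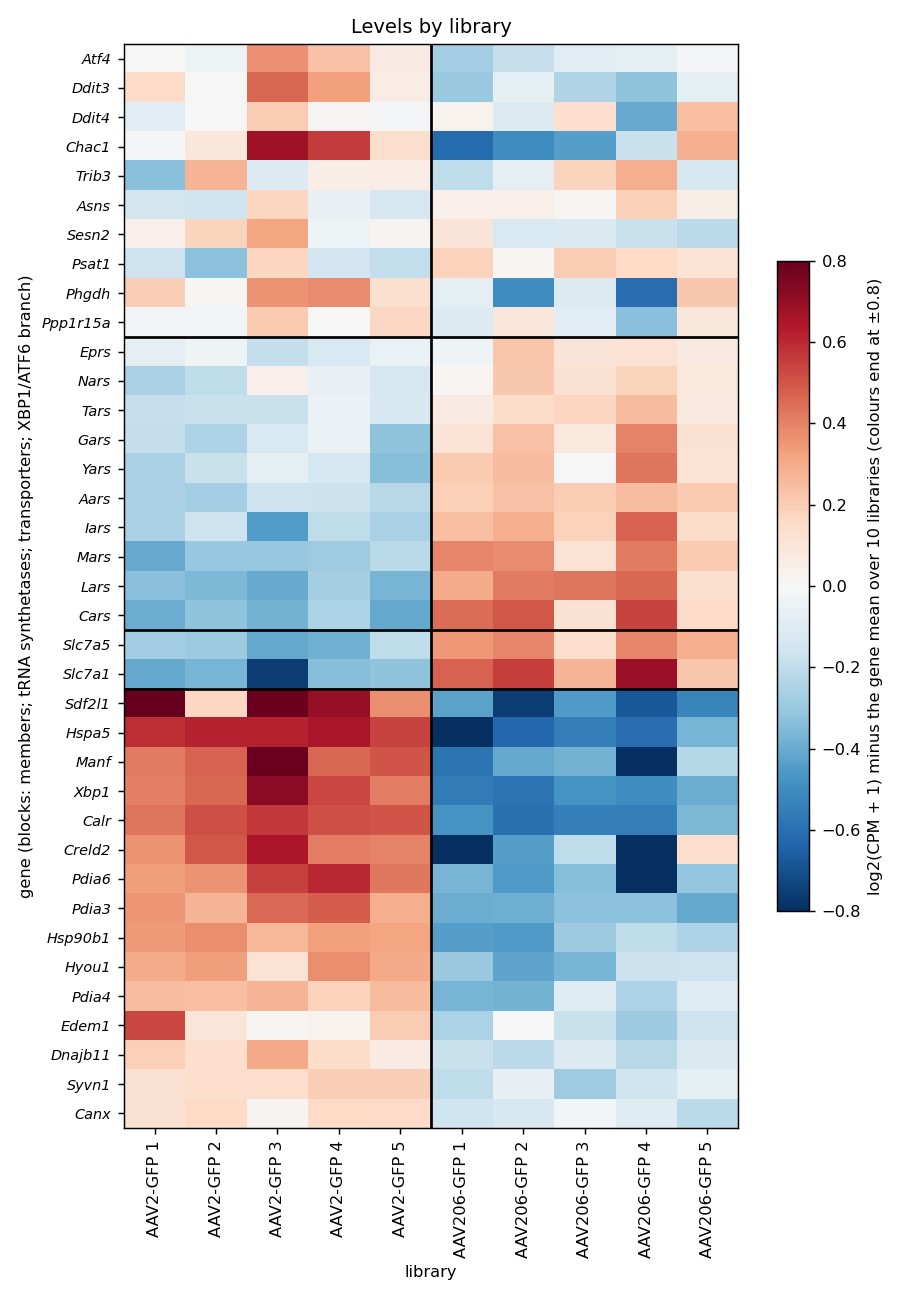
Log2(CPM + 1) of each gene less its mean over the 10 libraries (colour, ending at ±0.8) in every mouse (columns), for the 10 ATF4 and integrated stress response genes and for the genes past the threshold among synthetases, transporters and the XBP1 and ATF6 branch. Synthetases and transporters are red on the AAV206-GFP side and the chaperones blue, while the 10 genes at the top are mixed, with AAV2-GFP replicate 3 red in most of them.

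Of 11 tested amino acid transporters 2 rose and none fell. Slc7a1, the cationic amino acid carrier, had 23.5, 24.2, 18.3, 24.8 and 25.0 CPM with AAV2-GFP and 44.2, 46.9, 38.4, 51.5 and 36.9 CPM with AAV206-GFP, which is 0.91 ± 0.11 as a log2 ratio with its SE (edgeR adjusted p = 6.7e-05). Slc7a5, the leucine carrier LAT1, rose to 71.4 ± 5.07 CPM with AAV206-GFP, from 46.0 ± 2.73 CPM with AAV2-GFP (SD, n = 5), which is 0.64 ± 0.07 as a log2 ratio with its SE (edgeR adjusted p = 3.42e-05). Neither gene had overlap between the groups. Slc7a11, the cystine carrier, had 0.50 and did not pass (edgeR adjusted p = 0.0858).

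Of 15 tested genes for serine, glycine, proline and one-carbon metabolism 3 rose and 1 fell, with a median of 0.24. Aldh18a1, which starts proline synthesis, had 24, 26.8, 27.1, 25.7 and 24.3 CPM with AAV2-GFP and 41.4, 52.3, 35.9, 59.4 and 40.6 CPM with AAV206-GFP, which is 0.84 ± 0.12 as a log2 ratio with its SE (edgeR adjusted p = 0.000324). Cbs (1.00), Mthfd1 (0.37) and, in the other direction, Got1 (-0.23) also passed and were named after their values were seen. Mthfd1 passed in all 21 alternatives. The Cbs call was lost with the replicate block, without AAV2-GFP replicates 1 and 4, and without AAV2-GFP 2 or AAV206-GFP 1, 3 or 4, and the Got1 call with the block and without AAV2-GFP 4. The mitochondrial folate enzyme Mthfd2, a known ATF4 target, had 0.52 (edgeR adjusted p = 0.0990) and passed without AAV2-GFP replicate 3 (0.67, adjusted p = 0.0457). Shmt2, its neighbour in that route, had -0.08 (adjusted p = 0.544).

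In the list of further ATF4 and CHOP targets, 2 of 33 tested genes passed with edgeR, or 6.06%, with a median of -0.00046. Sesn1 was higher (0.21, adjusted p = 0.0206) and Herpud1 lower (-0.24, adjusted p = 0.0221), both named after their values were seen. Both calls were lost with the replicate block, without AAV2-GFP 4, without AAV206-GFP 2 and without AAV2-GFP replicates 1 and 4, and that of Herpud1 also without AAV206-GFP 4. The secreted stress signal Gdf15 had only 1 to 11 counts per library and was not tested, and Fgf21 had 0 counts in every library, which allows up to 0.273 CPM in the shallowest of them.

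The XBP1 and ATF6 branch of the unfolded protein response, which supplies chaperones to the endoplasmic reticulum, had the most decreases of the 7 lists. Of its 20 genes 15 fell and none rose with edgeR, with a median of -0.53, and 13 to 15 were lower in all 21 alternatives. Hspa5 (BiP), the main chaperone of this compartment, had 362, 368, 369, 378 and 349.6 CPM with AAV2-GFP and 132, 155, 164, 157 and 185 CPM with AAV206-GFP, which is -1.20 ± 0.08 as a log2 ratio with its SE (edgeR adjusted p = 9.89e-08). Xbp1, the branch's transcription factor, fell by 1.03 on the log2 scale, and Calr, a calcium-binding chaperone, by 1.01 (edgeR adjusted p = 4.03e-07 and 7.53e-08).

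Sdf2l1, Manf, Pdia6, Pdia3, Hsp90b1, Hyou1, Pdia4, Dnajb11 and Syvn1 fell by between 0.32 and 1.38 on the log2 scale, with reads of Hsp90b1 and Syvn1 fractional in all 10 libraries. The remaining 3 that fell, named after their values were seen, were Creld2 (-0.92), Edem1 (-0.37) and Canx (-0.25). The Edem1 call was lost with the replicate block, without AAV2-GFP replicates 1 and 4, and without AAV2-GFP 1 or 5 or AAV206-GFP 1, 3 or 4, and the Canx call without AAV2-GFP replicates 1 and 4. The endoplasmic reticulum stress element, searched on both strands as CCAAT and CCACG with 9 bases between them, was found in promoters of 7 of the 17 branch genes in the RefSeq table. It was found in none of the 10 ATF4 and integrated stress response genes, and in 0.119% of all promoters. Dnajc3, from the list with eIF2 and its kinases, had a match at -105. TGATGNAA was found in none of the 17.

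Summed levels of several marker lists were as follows, and their part in the results was not tested. The sum of 8 rod markers was 53222 to 56737 CPM with AAV2-GFP and 56906 to 62777 CPM with AAV206-GFP. That of 6 cone markers was 753 to 816 CPM and 830.5 to 881 CPM, and neither sum overlapped. Not every marker followed its sum. Of the 8 rod genes 5 had a positive log2 fold change and 3 a negative one, 2 passed as higher with edgeR and 1 lacked overlap. Of the 6 cone genes 5 were positive and 1 negative, and 2 passed as higher. Markers of the retinal pigment epithelium, the layer named for the vector in the series title, summed to 17.4 to 49.3 CPM and 20.3 to 28.9 CPM, with overlap. The sum of 10 ganglion cell markers was 1068 to 1258 CPM and 1034 to 1153 CPM, and that of 7 Muller glia markers 3321 to 4191 CPM and 3078 to 3702 CPM, both with overlap. Lens markers summed to 11.9 to 33.3 CPM and 1.46 to 13.3 CPM, with overlap and with 1 of 9 (Lim2) at 0 in every library. The 13.3 CPM was AAV206-GFP replicate 1, against 1.46 to 3.31 CPM in the other AAV206-GFP mice. Of the 9 lens genes 2 were tested, and both passed as lower with edgeR (log2 fold changes -2.67 and -2.50). Erythrocyte markers summed to 67.8 to 85.8 CPM and 100.6 to 319 CPM, without overlap. Without AAV2-GFP replicates 1 and 4, the mice high for interferon-stimulated genes, 1 of the 10 ATF4 and integrated stress response genes was past the threshold (Ddit3), as were 8 synthetases, all higher, and 13 branch genes, all lower.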

How the data were processed

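RNA of 10 retinas was sequenced as read pairs after Trizol extraction and NEBNext Ultra library preparation, per the labels' protocols. The deposited table holds estimated counts, 1 value per gene and library, without scaling. STAR 2.7.10b, RSEM 1.3.1 and the build mm10 are named in the submitters' processing notes. The annotation release is not given in the sources used here, and symbols, positions and exon lengths came from GENCODE M21 (GRCm38). Of all values 5.95% carried decimals, and they were rounded to whole numbers although counts had been planned for. None of the 10 genes had a decimal in any library.

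Groups came from the sample titles. Genes were kept by filterByExpr (minimum count 10; 15539 of 57010), scaled by TMM and tested with edgeR 4.0.16 in R 4.3.3 by the quasi-likelihood F test over all 10 libraries, with Benjamini-Hochberg adjustment over all genes at 0.05. Standard errors are the absolute log2 fold change over the square root of F, and 95% intervals use the fit's degrees of freedom. Correlations used log2(CPM + 1) less the group mean. Alternatives were other scalings and filters, DESeq2 1.42.0, limma-voom (limma 3.58.1) with and without sample weights, unrounded values, the replicate number as a block, and left-out libraries.

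The members and lists were chosen with earlier results of these data known. The text names all 10 genes, the 20 pathway genes of lowest p-value among those past the threshold, 15 pathway genes fixed by name (all given where tested), the other pathway genes past the threshold, added after their values were seen, and the 3 genes most like Atf4 and Ddit3. Libraries of a group differed by 3.71 to 22.7 chi-square units per degree of freedom, so none was a duplicate. Floors of 3 counts cover counting error only. Strand was not stated for the counting. On simulated counts of this comparison (15333 genes) the fit found 79.8% of the 2-fold changes and 67.0% of the 1.5-fold ones, and 12 of 158 calls were false. Changes under 1.5-fold were not simulated, so how many of those the fit finds is not known. Equal replicate numbers did not pair the mice.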

Additional observations from a re-analysis of the deposited data

Results flagged for a closer look

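In 118 groups of 5 mice (the 10 genes and 49 pathway genes, each in 2 groups) 10 had a mouse far from the others of its group, where chance gives 5.9. The measure was the gap to the nearest mouse over the range of the group, with a limit of 0.71. AAV2-GFP replicate 3 accounted for 5 of them. It was high for Asns (33.6 against 26.6 to 28.6 CPM), Manf (55.1 against 42.4 to 45.0 CPM) and Mthfd2 (8.66 against 5.33 to 5.81 CPM), and low for Slc7a1 (18.3 against 23.5 to 25.0 CPM) and Canx (291 against 312 to 320.2 CPM). AAV2-GFP replicate 2 was high for Tfeb, at 14.1 against 10.9 to 11.8 CPM. AAV206-GFP replicate 4 was high for Asns, at 34.1 against 29.9 to 30.8 CPM. AAV206-GFP replicate 1 was high for Sesn2 (25.6 against 20.4 to 21.8 CPM) and low for Ppp1r15b (60.2 against 71.5 to 75.7 CPM). AAV2-GFP replicate 4 was high for Eif2ak2, at 22.8 against 4.02 to 9.22 CPM.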

How the results depend on the processing

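Of the 42 genes of the 10 and of the pathway lists past the threshold, 28 stayed past it in all 21 alternatives, and Atf4, Atf3, Atf5, Eif2ak4, Foxo3, Ppp1ca, Eprs, Nars, Cbs, Got1, Sesn1, Herpud1, Edem1 and Canx did not. The number of the 10 genes past the threshold, 2 in the main analysis, was 1 with upper-quartile factors, with a mean of at least 1 CPM, with limma-voom and without AAV2-GFP replicates 1 and 4, and 4 with limma-voom and sample weights. Leaving out 1 library gave 1 to 3. The number over all genes, 1747, was 985 without AAV2-GFP replicates 1 and 4, and 991 to 1912 when 1 library was left out (991 without AAV2-GFP replicate 4, 1074 and 1056 without AAV206-GFP replicates 2 and 4). With the replicate number as a block, 1085 genes and 1 of the 10 passed. Same-numbered mice had correlations from -0.052 to 0.040, so the numbers are not taken as pairs, and 0 of 5 mice correlated best with its own number. The number of pathway genes, 40, stayed within 1.5 times. The number of correlated pairs was 0 without AAV2-GFP replicates 1 and 4 (3 at an unadjusted exact permutation p under 0.05), where the 720 orders allow a lone pair no adjusted exact permutation p under 0.0625, so this count says nothing of whether the relation depends on these mice. Signs turned for 3 genes that did not pass in the main analysis. Trib3 was -0.016 with limma-voom and sample weights, -0.067 without AAV2-GFP replicates 1 and 4, and from -0.058 to 0.11 when 1 library was left out. Ddit4 was between -0.10 and 0.051 when 1 library was left out. Eif2ak2 was 0.0043 with limma-voom, 0.37 without AAV2-GFP replicate 4 (from -0.55 when other single libraries were left out) and 0.75 without AAV2-GFP replicates 1 and 4. The causes of the other changes were not tested. Low counts limit Chac1, Phgdh and Trib3.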
